A study of Mus musculus with 12 samples.

Results

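The cytosolic ribosomal protein genes encode the proteins of the large and small subunits of the ribosome outside mitochondria. They were chosen by name, as every non-control probe whose accession mapped to a mouse symbol beginning with Rpl or Rps and a digit, or to Rplp0, Rplp1, Rplp2 or Rpsa, without the Rps6k kinases and without symbols marked as pseudogenes. The rule found 172 of 39429 probes, which belonged to 86 genes. For a probe to be kept, some group had to show it well above background throughout its 3 arrays in Cy5 or in Cy3. This held for 169 of the 172 probes, which stood for 84 of the 23237 genes tested. The 84 genes were 43 of the large subunit, 30 of the small subunit, the 3 stalk proteins Rplp0, Rplp1 and Rplp2, 6 paralogs such as Rpl39l and Rps27l, and 2 genes that carry the name but encode no ribosomal protein, the S19-binding protein Rps19bp1 and the Rps23 retrogene Rps23rg1. Rpl10l and Rpl3l, paralogs known from testis and from muscle, were left out by that filter. Neither of the 2 Rpl10l probes was well above background on any array, and the Rpl3l probe was so on 4 arrays in Cy5 and 1 in Cy3.

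The study measured how intravitreal particles change gene expression in the mouse retina. Male C57BL/6 mice aged 5 weeks received gold particles of 100 nm, gold particles of 20 nm, silicate particles of 100 nm, silicate particles of 20 nm, or phosphate-buffered saline (PBS) as control, and retinas were taken 7 days later. Each group had 12 mice, with 4 retinas pooled per tube and so 3 tubes per group. The 12 two-colour arrays lay on 3 slides, each with 1 array of every particle group, and held particle RNA in Cy5 and PBS RNA in Cy3. No array had the dyes exchanged, so each ratio of particle to PBS includes the probe's own dye effect, which cancels when particle groups are compared. The protocol gives the sizes as diameters in nm and the labels write nM, and the protocol was followed. On the silicate arrays the strain label of the PBS channel ends in a number that climbs from array to array, and the strain of the protocol was used. All 4 arrays of a slide were taken to share 1 PBS tube, which the labels do not state. No altered allele is named for any group, and all groups, PBS included, had an injected eye. The 15 rod photoreceptor genes, markers of the retina's main cell type, had median log2 levels of 16.42, 16.81 and 16.95 in the PBS channel of slides 1 to 3, against 9.63, 9.53 and 9.51 over all genes.

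Ribosomal proteins are made in near-equal amounts and join ribosomal RNA in the nucleolus, so their genes are usually expressed together and strongly in every growing or secreting cell. Most of their mRNAs begin with a pyrimidine tract through which mTOR signalling controls their translation. Photoreceptors, the most numerous cells of the retina, renew their outer segments throughout life and carry a high load of protein synthesis. The genome holds many processed pseudogenes with nearly the same sequence as these genes, and several paralogs are close copies, so a probe may bind RNA of more than one locus. The probe sequences were not used here, and such sharing of signal was not tested.

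Promoters are shown for a few of the genes because of values given further on. Rplp0, Rpl10 and Rps9 moved together from slide to slide. Rpl4 and the brightest probe of Rpl14 did not, and Rpl39l had the largest ratio. The sequences are RefSeq's, on build GRCm38.p6, 5′ to 3′ on the gene's own strand, from 40 bases before the annotated start through the first 20 bases of the transcript. Capitals mark an unbroken run of at least 5 pyrimidines that covers the start, or the motif CCGGAA on either strand, the core of the site that GABP and other ETS factors bind.
Rplp0, chr5:115559427-115559486: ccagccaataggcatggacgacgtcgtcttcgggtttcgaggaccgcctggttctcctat
Rpl10, chrX:74270776-74270835: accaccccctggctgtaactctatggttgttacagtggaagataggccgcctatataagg
Rps9, chr7:3704001-3704060: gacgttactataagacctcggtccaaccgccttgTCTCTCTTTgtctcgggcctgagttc
Rpl39l, chr16:10170188-10170247: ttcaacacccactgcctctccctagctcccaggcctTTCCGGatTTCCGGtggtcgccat
Rpl4, chr9:64173347-64173406: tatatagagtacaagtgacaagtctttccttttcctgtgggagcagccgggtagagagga
Rpl14, chr9:120571477-120571536: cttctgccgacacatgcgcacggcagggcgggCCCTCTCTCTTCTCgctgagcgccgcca
All 6 are on the plus strand. The run covered the start in Rps9, with 9 bases, and in Rpl14, with 14. It was found in 21 of 74 member promoters (28.4%), which belonged to 63 of the 84 genes, against 10.1% of all 32851 promoters. CCGGAA, searched on both strands over the full 300 bases, was in 36 of the 74 (48.6%) against 14.9% of all. Rpl10 and Rpl14 hold it outside the windows shown. Such matches describe these letters and are not sites, and an annotated start can lie some bases away from the one used in retina.

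The members were measured near the top of the scale. The mean log2 intensity of their probes over both channels had a median of 15.65 and ran from 6.95 for Rpl39l to 17.16 for Rps14, against a median of 9.55 over all genes. It exceeded 14 in 74 of the 84 genes and 16 in 35. No spot was saturated. A probe's intensity also depends on its sequence, so this range does not rank the transcripts.

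The ratios of particle to PBS differed more by slide than by particle, except on slide 3, where gold and silicate parted. Values are log2 ratios, positive where the particle tube was higher. On slide 1 the median over the 84 genes was -0.17 and -0.20 on the gold arrays of 100 nm and 20 nm, and -0.21 and -0.15 on the silicate arrays of 100 nm and 20 nm. On slide 2 the medians, in the same order of groups, were -0.02, 0.04, -0.01 and 0.001. On slide 3 they were -0.06 for gold 100 nm and 0.02 for gold 20 nm, but 0.30 for silicate 100 nm and 0.27 for silicate 20 nm. The median of all genes stayed between -0.011 and 0.012 on every array. Of the 84 genes, 19, 12, 14 and 15 were above 0 on the arrays of slide 1 in that order, against 76 and 75 on the silicate arrays of slide 3. Genes below 0 on all 4 arrays of slide 1 numbered 61 of 84, where 34% of all genes did the same. Of the 84, 58 were below 0 on all 4 arrays of slide 1 and above 0 on both silicate arrays of slide 3, against 22.6% of all genes. The normalization changed the height of these medians. With plain median centring the slide 1 arrays lay between 0.01 and 0.10, which overlapped the 0.04 to 0.19 of slide 2, and the silicate arrays of slide 3 were again highest, at 0.63 and 0.56. With the processed signals the members' medians were -0.29 to -0.24 on slide 1, and 0.19 and 0.15 on the silicate arrays of slide 3. The medians of all genes themselves ranged there from -0.20 to 0.16. In the value table the authors deposited, the members had -0.45 to -0.33 on slide 1. Its silicate arrays of slide 3 had 0.40 and 0.32, with medians of all genes between -0.005 and 0.008.

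**Figure D1:**
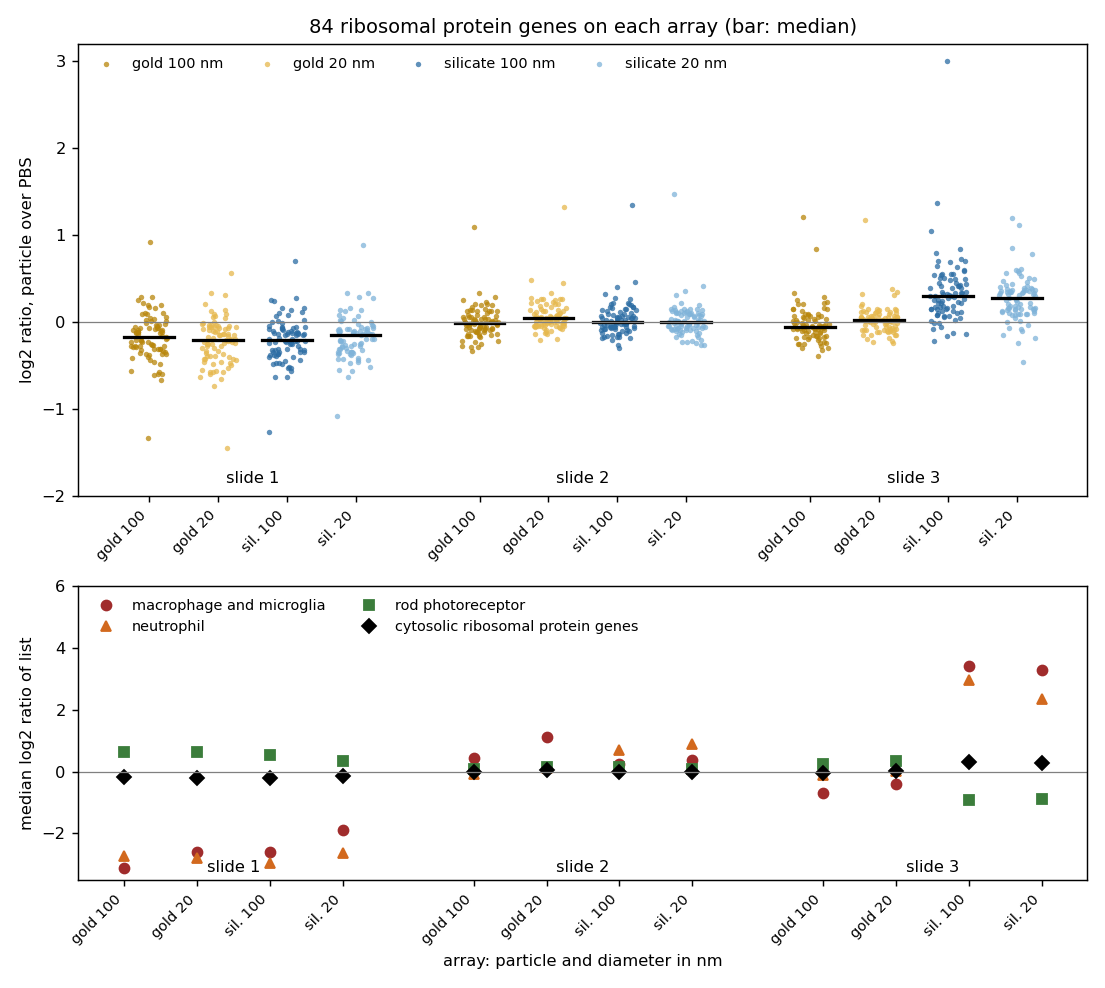
Upper panel: log2 ratio of particle over PBS (vertical axis) of the 84 ribosomal protein genes on each of the 12 arrays (horizontal axis, by slide and group), 1 point per gene, with the median as a bar. Lower panel: median log2 ratio of that set and of 3 cell marker lists on the same arrays. The members lie lowest on slide 1 and highest on the silicate arrays of slide 3, with medians of 0.30 and 0.27, and the macrophage and neutrophil lists run the same way with far larger ratios.

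Markers of other cells moved with slide as well. The 14 measured of 15 macrophage and microglia genes had medians of -3.11, -2.60, -2.59 and -1.89 on slide 1, 0.44, 1.11, 0.24 and 0.38 on slide 2, and -0.70, -0.39, 3.40 and 3.28 on slide 3, in the same order of groups as above. The 7 neutrophil genes lay between -2.96 and -2.63 on slide 1 and at 2.95 and 2.36 on the silicate arrays of slide 3. The 15 rod genes went the other way, with 0.34 to 0.64 on slide 1 and -0.91 and -0.87 on those 2 silicate arrays. The 10 measured of 11 retinal pigment epithelium genes were highest on slide 1 in every group, where the members were lowest, with medians of 1.41 to 2.93 on slide 1, 0.12 to 1.59 on slide 2 and -0.30 to 0.37 on slide 3. In silicate 100 nm they had 0.12 on slide 2 and 0.37 on slide 3, and on slide 3 the silicate arrays lay above the gold ones, which was also the members' order. In the mean of the 4 particle groups 6 of these 10 were called higher, with a median of 0.94, where 8.43% of all genes were. With the slide as a random block 0 of the 10 passed, and with it as a fixed block 9 did. The 16 lens genes had medians from -2.05 to 2.20 and kept no common order of slides across the 4 groups. In the PBS channel the median level of the macrophage list was 12.97 on slide 1, 9.15 on slide 2 and 10.29 on slide 3. The part of cell makeup in the ribosomal values was not tested, and in pooled tissue a change in the number of cells and a change in RNA per cell cannot be told apart.

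The PBS side of the ratio differed between slides too. The median Cy3 level of the 84 genes was 15.84 on slide 1, 15.63 on slide 2 and 15.69 on slide 3, and 60 of the 84 had their highest PBS level on slide 1. Over all genes the median was also highest on slide 1, at 9.63, against 9.53 and 9.51 on slides 2 and 3. The share of all genes highest on slide 1 was not computed, so the count is not read as particular to the members. Within a slide the SD of a gene's Cy3 level over the 4 arrays had a median of 0.05, 0.045 and 0.054 on slides 1 to 3, against 0.152 between slides. In Cy5 the SD within slides was 0.065, 0.054 and 0.134. On slide 3 the spread was thus larger in the particle channel than in the PBS channel.

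Rps27l, a paralog of Rps27 that p53 is known to induce, had the widest spread over the 12 arrays, with an SD of 0.91. On slides 1 to 3 gold 100 nm had log2 ratios of -1.34, 0.03 and -0.13, and gold 20 nm had -1.45, 0.12 and -0.02. Silicate 100 nm had -1.27, -0.04 and 1.36, and silicate 20 nm had -1.08, 0.02 and 1.11. All 4 groups were low on slide 1, and only the silicate arrays of slide 3 exceeded 1. Its Cy5 level on slide 1 lay between 12.29 and 12.57 over the 4 particle groups. On that slide its PBS level was 13.70, against PBS levels of 12.19 on slide 2 and 12.11 on slide 3. On the silicate arrays of slide 3 it was the Cy5 level that stood out, with 13.45 and 13.18 for 100 nm and 20 nm.

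Rplp0, the stalk protein that anchors the P1 and P2 dimers and a common reference gene in quantitative PCR, had ratios of -0.60, -0.03 and -0.18 on slides 1 to 3 of gold 100 nm, and gold 20 nm gave -0.66, 0.07 and -0.11. Silicate 100 nm gave -0.56, -0.09 and 0.83, and silicate 20 nm gave -0.43, -0.06 and 0.78. The order of the slides was that of Rps27l at a smaller scale. Rpl10, which joins the large subunit in its last maturation steps, had -0.38, 0.12 and -0.01 in gold 100 nm, where gold 20 nm gave -0.47, 0.25 and 0.02. In silicate 100 nm it had -0.40, 0.14 and 1.04, where silicate 20 nm gave -0.35, 0.07 and 0.85. Their SDs over the 12 arrays were 0.48 for both. Rps9, a small subunit protein singled out after its values were seen, had -0.57, -0.006 and -0.25 in gold 100 nm, and -0.74, -0.03 and -0.20 in gold 20 nm. In silicate 100 nm it had -0.53, -0.13 and 0.39, and in silicate 20 nm -0.63, 0.004 and 0.39. All 3 genes were lowest on slide 1 in every group and highest on the silicate arrays of slide 3. In the PBS channel Rplp0 and Rpl10 varied over the 4 arrays of slide 3 with an SD of 0.16, above the members' median of 0.054. The paralog Rpl36al had an SD of 0.42, with ratios from -0.58 for gold 20 nm on slide 1 to 0.70 for silicate 100 nm on slide 3. Rpl39l, described below with the particle comparison, had the other large SD of the first 5, at 0.62.

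At the other end of the range, the brightest probes of some members hardly moved with slide. The brightest probe of Rpl14, a large subunit protein, lay between 0.08 and 0.22 on all 12 arrays. Its other kept probe did move, with -0.45 and -0.61 for gold and -0.49 and -0.47 for silicate on slide 1 (100 nm and 20 nm). On slide 3 that probe had -0.09 and 0.25 for gold and 0.19 and 0.38 for silicate, so the flat course of Rpl14 rests on 1 probe. Rpl4, which lines the exit tunnel of the large subunit, lay between 0.04 and 0.20. Rpl22l1, the paralog of Rpl22, lay between -0.16 and 0.14, while the brighter of the 2 kept Rpl22 probes was at -0.48 and -0.58 for gold and -0.46 and -0.55 for silicate on slide 1, and at -0.30 and -0.01 for gold against 0.55 and 0.35 for silicate on slide 3 (100 nm and 20 nm). The dimmer Rpl22 probe ran the other way, with 0.24 and -0.06 for gold and 0.10 and 0.10 for silicate on slide 1, and 0.14 and 0.11 for gold against -0.20 and -0.28 for silicate on slide 3, so the contrast with Rpl22l1 rests on 1 probe.

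**Figure D2:**
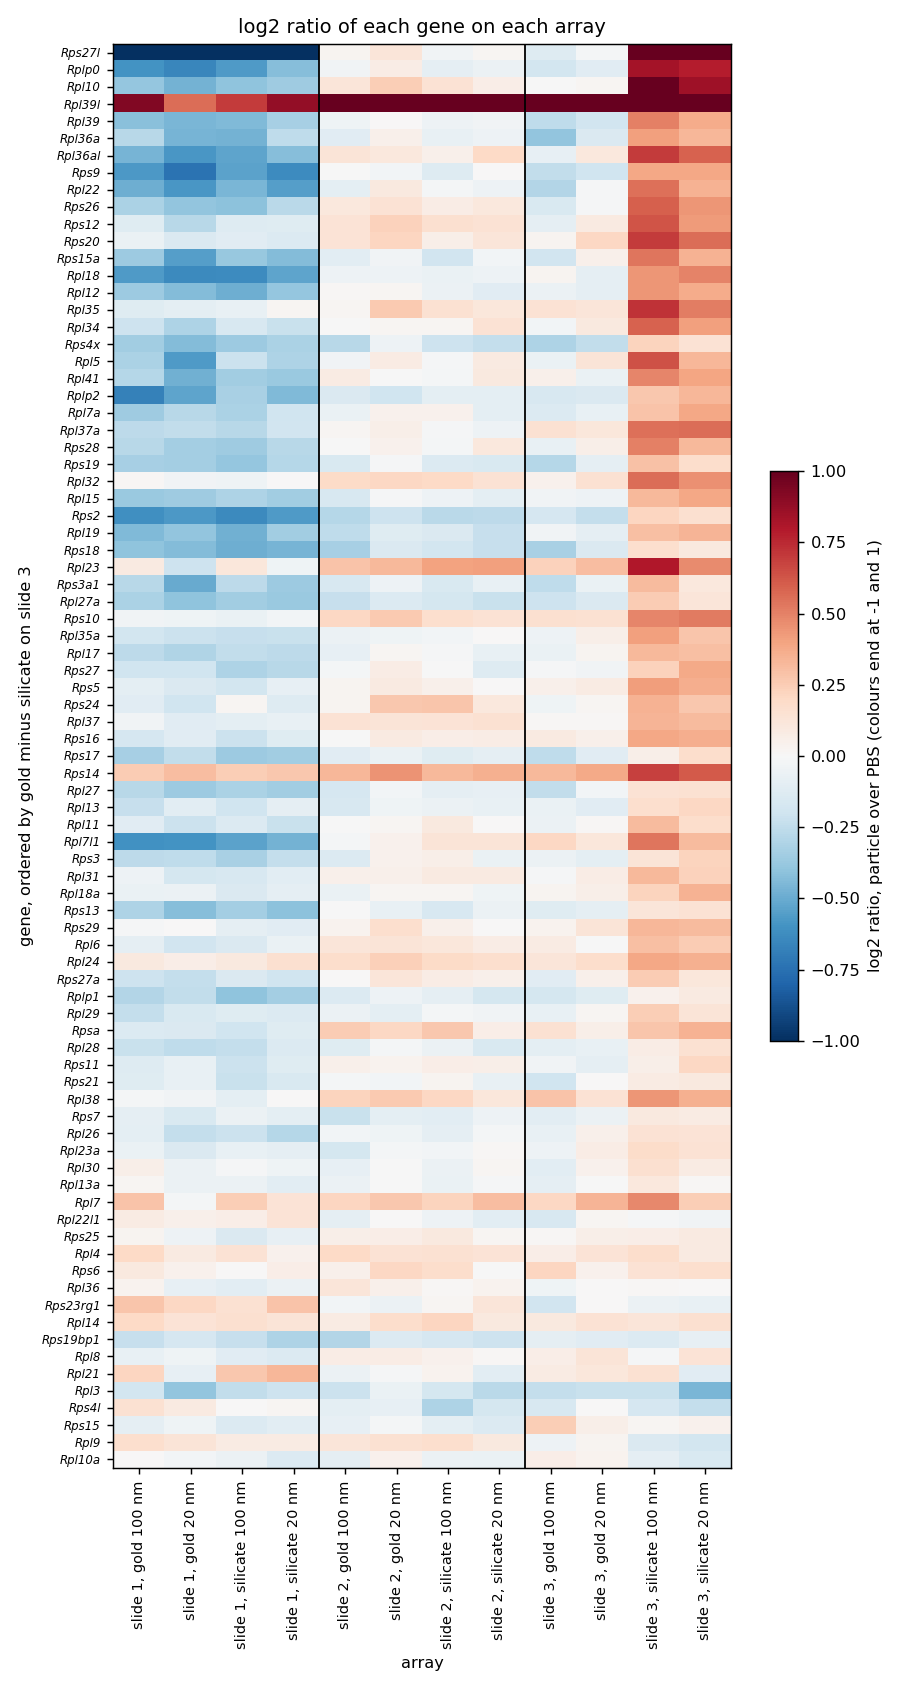
Log2 ratio of particle over PBS of 83 of the 84 genes (rows, ordered by gold minus silicate on slide 3) on each of the 12 arrays (columns, by slide). Red is above 0, blue below, and colours end at -1 and 1; Rps27l at the top runs from blue on slide 1 to red on the silicate arrays of slide 3, while Rpl14 and Rpl3 near the bottom keep 1 colour.

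Each particle group was next set against PBS. With 3 arrays a group, 0 of the 84 genes passed an adjusted p of 0.05 in limma in any of the 4 groups. The share of all tested genes called was 0.977% for gold 100 nm, 0.706% for gold 20 nm, 0.99% for silicate 100 nm and 2.08% for silicate 20 nm. At an unadjusted p under 0.05, 11, 8, 9 and 9 members passed in the same order, where 12.1%, 8.79%, 10.8% and 15.5% of all genes did. The members' shares, 13.1%, 9.52%, 10.7% and 10.7%, were near or below these. The median log2 ratio of the members was -0.08 for gold 100 nm, -0.06 for gold 20 nm, 0.03 for silicate 100 nm and 0.01 for silicate 20 nm, against medians of all genes between -0.016 and 0.010. Rps14 came close in silicate 20 nm, with 0.41 (SE 0.09, adjusted p = 0.05079 in limma, higher on 3 of 3 arrays). With the slide as a block, which the shared slide numbers allow, 5 members passed in gold 100 nm, 1 in gold 20 nm, 4 in silicate 100 nm and 5 in silicate 20 nm, where 6.71%, 4.47%, 4.03% and 8.76% of all genes did. Without both silicate arrays of slide 3, whose markers stand apart, 2 members passed for gold 100 nm and 1 for gold 20 nm, where 1.15% and 0.839% of all genes did. This alternative was added after the data were seen.

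In the mean of the 4 particle groups against PBS, 8 members were higher and 3 lower. These are 9.52% and 3.57% of the 84, while 8.43% of all genes were called higher and 6.34% lower, so the share called either way, 13.1%, was near the 14.8% of all genes. The members' median was -0.02 and that of all genes -0.01, with 32 members above 0 and 52 below. The higher genes included Rps14, Rpl39l, Rpl23, Rpl7, Rpl24, Rpl14 and Rpl4, and the 3 lower were Rpl3, Rps18 and Rps19bp1. Rpl39l was kept through the Cy5 channel alone, and so in part for its ratio, but counts in these shares. By class, 5 of 43 large subunit genes were higher and 1 lower, 2 of 30 small subunit genes were higher and 1 lower, 1 of 6 paralogs was higher, and 0 of the 3 stalk genes passed. The split of the calls depended on the scaling, with 1 higher and 8 lower on the processed signals, where 5.42% of all genes were higher and 3.98% lower. After median centring 36 were higher and 1 lower, where 11.2% and 3.55% of all genes were. In the value table the authors deposited, a single member was higher and 4 were lower, where 8.41% and 6.21% of all genes were. With the slide as a block, 32 members passed, 13 higher and 19 lower, where 34.8% of all genes did, 17.8% higher and 17.1% lower. With the slide as a random block only Rps14 passed (adjusted p = 0.03124 in limma), where 1.69% of all genes did, and without the arrays of slide 2 none passed, where 1.15% did. Without those of slide 1, 7 passed, 6 higher and 1 lower, where 4.13% of all genes did. Without those of slide 3, 10 passed, but 3 higher and 7 lower, where 9.09% did. Rpl4 missed the threshold whichever slide was left out (adjusted p = 0.0529 to 0.226 in limma). Without both silicate arrays of slide 3, 23 passed, 6 higher and 17 lower, where 16.9% of all genes did. This alternative was added after the data were seen. It drops the arrays with the members' highest medians, so a shift towards lower calls was built in.

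Rps14, a small subunit protein whose loss in one copy is known from a human anaemia syndrome, was higher on 12 of 12 arrays. On slides 1 to 3 the gold 100 nm arrays gave log2 ratios of 0.26, 0.33 and 0.33 and the gold 20 nm arrays 0.31, 0.45 and 0.38. The silicate 100 nm arrays gave 0.24, 0.32 and 0.69 and the silicate 20 nm arrays 0.27, 0.36 and 0.61. The groups overlapped, and the silicate arrays of slide 3 were highest. The mean was 0.38 (SE 0.04, 95% interval 0.28 to 0.48), a fold of 1.3, with an adjusted p of 0.0006142 in limma. That fit treats the arrays as independent, so its intervals are likely too narrow, here and for the genes below. With the slide as a random block the adjusted p of Rps14 was 0.03124 in limma. Its probe was also the brightest of the members, and on the processed signals the mean was 0.15 (adjusted p = 0.122). A dye effect at that brightness cannot be told apart from a particle effect on arrays of 1 dye orientation.

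Rpl39l, a paralog of Rpl39 known from male germ cells, had the largest ratio. Its probe was well above background in Cy5 on 12 of 12 arrays and in Cy3 on 0 of 12, so the PBS level is only a bound. It was kept through the Cy5 channel alone and so was chosen in part for its ratio, and its call is given as a description. On slides 1 to 3 gold 100 nm had ratios of 0.93, 1.09 and 1.21, and gold 20 nm had 0.56, 1.32 and 1.17. Silicate 100 nm had 0.70, 1.35 and 3.00, and silicate 20 nm had 0.88, 1.48 and 1.20. The groups overlapped, and 1 array, silicate 100 nm on slide 3, stood above the rest. By their mean levels, particle retinas were at least 2.36-fold higher than PBS retinas over the 12 arrays. Mean levels were 7.58 in Cy5 and 6.34 in Cy3. The 95% interval of the log2 ratio was 0.86 to 1.62. With no filter on dim probes the adjusted p was 0.00169 in limma. In the filtered fit it was 0.001471, which is no support because the probe was kept for its Cy5 signal. The adjusted p was 0.0814 with the slide as a random block and 0.108 without the arrays of slide 2. By group the bound was at least 2.11-fold for gold 100 nm, 2.02-fold for gold 20 nm, 3.21-fold for silicate 100 nm and 2.28-fold for silicate 20 nm, none past the threshold. Without its array on slide 3 the silicate 100 nm bound was at least 2.03-fold, and the bound over the other 11 arrays at least 2.11-fold, values chosen after the data were seen. These bounds rest on single normalized channels of 1 dye orientation and are open to dye bias. They are taken from mean levels and leave out the spread between arrays.

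Rpl3, which lies near the peptidyl transferase centre, was lower on 12 of 12 arrays, with ratios between -0.46 and -0.06. On slides 1 to 3 gold 100 nm had -0.18, -0.22 and -0.23, and gold 20 nm had -0.40, -0.06 and -0.22. Silicate 100 nm had -0.25, -0.18 and -0.22, and silicate 20 nm had -0.21, -0.27 and -0.46. No slide stood apart. The mean was -0.24 (SE 0.03, 95% interval -0.32 to -0.16), a fold of 0.846, with an adjusted p of 0.001837 in limma. This interval too treats the arrays as independent and is likely too narrow. Rps19bp1 was lower on 12 of 12 arrays by a similar measure, with a mean of -0.18 (SD 0.07, adjusted p = 0.003853). Both passed on the processed signals and in the value table as well, and both missed the threshold with the slide as a random block (adjusted p = 0.128 for Rpl3 and 0.122 for Rps19bp1 in limma) and without the arrays of slide 2 (0.0751 and 0.168). After median centring Rpl3 was at -0.031 (adjusted p = 0.651), and without the arrays of slide 1 Rps19bp1 was at -0.15 (adjusted p = 0.0823). Rps18 was lower on 10 of 12 arrays, with 0.17 and 0.10 on the silicate arrays of slide 3 and a mean of -0.24 (adjusted p = 0.03481).

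Of the large subunit, 5 genes were higher. Rpl7 was higher on 11 of 12 arrays, at 0.24 (adjusted p = 0.003489 in limma). Rpl24, which forms a bridge to the small subunit, was higher on 12 of 12, at 0.19 (adjusted p = 0.00662). Rpl14 and Rpl4 were higher on 12 of 12, at 0.14 and 0.13 (adjusted p = 0.003833 and 0.006888). Rpl23, a binding partner of Mdm2, was higher on 10 of 12, at 0.27 (adjusted p = 0.04153). On the processed signals none of these 5 passed, and their means there were 0.01 to 0.13. In all, 5 members were above 0 on all 12 arrays and 2 below, against 3.79% and 2.45% of all genes.

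**Figure D3:**
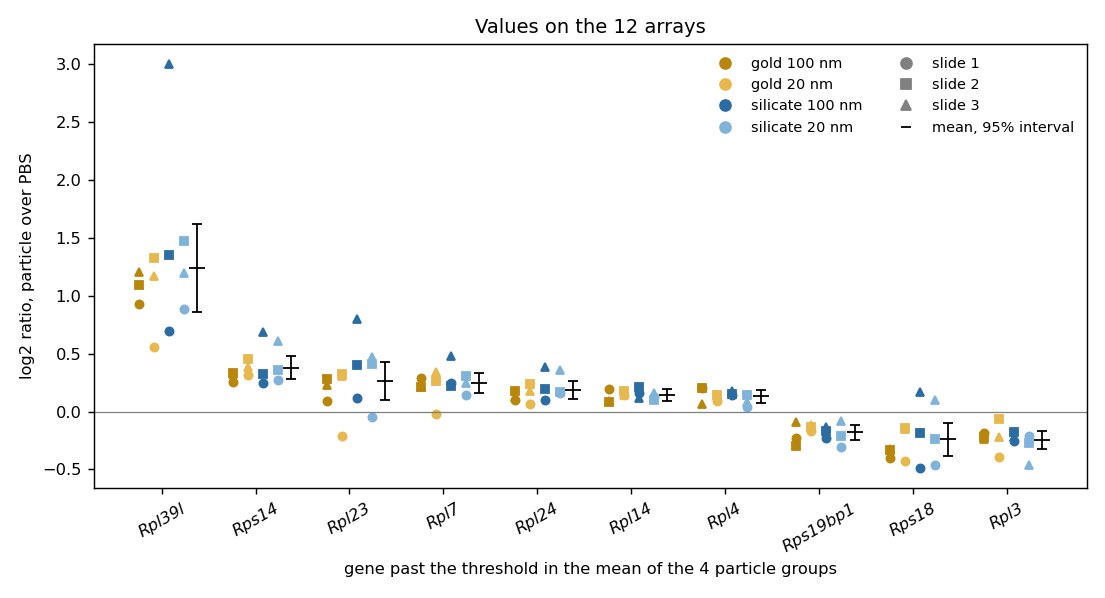
Log2 ratio of particle over PBS (vertical axis) on each of the 12 arrays for 10 of the 11 genes past the threshold in the mean of the 4 particle groups (horizontal axis), coloured by group and shaped by slide, with the mean and its 95% interval in black. Rps14 and Rpl39l lie above 0 and Rpl3 and Rps19bp1 below 0 on every array, and the silicate 100 nm value of Rpl39l on slide 3 is 3.00. The intervals treat the arrays as independent and are likely too narrow.

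Several members with well-known roles did not pass in the mean of the 4 groups. The stalk genes were at -0.09 for Rplp0 (adjusted p = 0.7267 in limma), -0.16 for Rplp1 (0.05847) and -0.18 for Rplp2 (0.1671). Rpl5 and Rpl11, which carry 5S RNA and can bind Mdm2, were at -0.02 and -0.01, with adjusted p of 0.9067 and 0.9125. Rps6, the substrate of the S6 kinases, was at 0.10 (0.05473), and Rpsa, which also acts as a laminin receptor, at 0.09 (0.3936). Rps4x, a small subunit protein encoded on the X chromosome, was at -0.20 (0.05111), and its paralog Rps4l at -0.08 (0.2328). Rps19, the small subunit protein most often altered in Diamond-Blackfan anaemia, was at -0.14 (0.1674). Rpl10 and Rpl22 were at 0.07 and -0.13, and the paralogs Rps27l, Rpl7l1, Rpl36al and Rpl22l1 at -0.22, -0.06, -0.02 and -0.01, none with an adjusted p under 0.6 apart from Rpl22 at 0.4522. Besides Rps14, the probes with the highest PBS intensities were those of Rps10, Rps20, Rpl9 and Rps29, at 0.16, 0.13, 0.05 and 0.07, and the dimmest kept beside Rpl39l were Rpl7l1 and Rpl21, the last at 0.07.

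Gold and silicate were compared directly, where the dye effect cancels. Of the 84 genes 0 passed, as did 0% of all genes tested in limma, and no member had an unadjusted p under 0.05, where 1206 of 23235 genes did. The median difference, gold minus silicate, was -0.10, against -0.02 over all genes, with 12 members above 0 and 72 below. Within slides the median difference was 0.003 on slide 1, 0.012 on slide 2 and -0.298 on slide 3, and gold lay below silicate in 40, 33 and 75 of the 84 genes. Over all genes 56.9%, 51.6% and 50.4% lay below. Without both silicate arrays of slide 3, left out after the values were seen, the median was 0.04. The smallest p was that of Rpl10a, named here after its values were seen, with 0.10 (95% interval -0.01 to 0.21, adjusted p = 0.8813). Rps27l differed by -0.48, and its interval, -1.69 to 0.73, left room for large differences either way, as did that of Rplp0, -0.96 to 0.30 around -0.33. Both intervals are from the fit without the slide, so they include the spread between slides that gold and silicate share. Within slides 1 to 3 gold minus silicate was -0.13, 0.09 and -0.95 for Rplp0.

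Particles of 100 nm and of 20 nm gave close values for most members. The median difference, 100 nm minus 20 nm, was -0.01, with 37 genes above 0 and 47 below, and single genes ran from -0.12 to 0.28. Again 0 of the 84 passed, with 0% of all genes called, and 0 members had an unadjusted p under 0.05. For Rplp0 the difference was -0.04, with a 95% interval of -0.67 to 0.59, and for Rpl10a 0.01, with an interval of -0.09 to 0.12. These intervals are from the fit without the slide, so they include the spread between slides that both sizes share. Within slides the Rplp0 values were closer. For 100 nm and 20 nm they were -0.60 and -0.66 in gold and -0.56 and -0.43 in silicate on slide 1. On slide 2 they were -0.03 and 0.07 in gold and -0.09 and -0.06 in silicate. On slide 3 they were -0.18 and -0.11 in gold and 0.83 and 0.78 in silicate. The difference between the size effects of gold and of silicate had a median of -0.04, and 0 members and 0% of all genes passed. At an unadjusted p under 0.05, 0 members passed there as well.

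Probes of the same gene could differ in sign. Of the 84 genes, 52 had 2 or more kept probes and 32 had 1, and in 29 of the 52 the probes' means over the 12 arrays lay on both sides of 0. Some of these means lay close to 0, as for Rpl30, from -0.032 to 0.004. The share over all genes with several probes was not computed, so the count is not read as particular to the members. In the fit over all kept probes 19 of 169 passed, 10 higher and 9 lower (11.2%), where 13.9% of all probes did, 7.89% higher and 6.06% lower. In 0 of the 52 genes did every probe pass in 1 direction, and in 0 did probes pass in opposite directions. The range between the probes of a gene had a median of 0.11. The 3 probes of Rpl23 averaged 0.27, -0.14 and -0.14, those of Rps27a, a fusion of ubiquitin with a small subunit protein, -0.02, 0.19 and -0.18, those of Rps6 0.10, -0.14 and 0.21, and the 2 of Rpl24 0.19 and -0.12.

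A test of the difference between the brightest and the next brightest probe of a gene, on the same RNA and the same arrays, was chosen after these values were seen. It passed in 24 of the 52 genes, 18 with the brightest probe higher and 6 with it lower (46.2%), where 27.4% of 4389 genes with several probes passed, 15.6% higher and 11.8% lower. The median size of the difference was 0.08 for the members and 0.09 for all such genes. Rpl23 differed by 0.40 (SD 0.10, adjusted p = 4.85e-05 in limma), with the brightest probe higher on 12 of 12 arrays. Rpl24 differed by 0.31 (SD 0.04, adjusted p = 9.259e-06) and Rps6 by 0.24 (SD 0.06, adjusted p = 0.000134), also on 12 of 12. Rps18 ran the other way, with -0.28 (SD 0.12, adjusted p = 0.0007527), its brightest probe lower on 12 of 12. Rpl14, whose first probe was nearly flat, had a second probe that ranged from -0.61 to 0.38, and the difference of 0.25 did not pass (SD 0.36, adjusted p = 0.1105). Among the called genes, Rpl23, Rpl24, Rpl7, Rps18 and Rpl14 had another probe whose mean lay on the other side of 0. The 4 Rpl7 probes averaged 0.24, 0.15, -0.05 and -0.002, and the first 2 passed as higher in the fit over all kept probes. Rps14, Rpl39l, Rpl3, Rpl4 and Rps19bp1 had 1 kept probe each, so no second probe could be compared for them.

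Member probes lay mostly above 0 only in the brightest range, with no steady rise across the dimmer ones. Of the 46 member probes with a mean log2 intensity of 16 or more, 31 were above 0, with a median of 0.05, and all 405 probes at that intensity had a median of 0.16. From 15 to 16, 7 of 49 were above 0 (median -0.08), and from 14 to 15, 3 of 34 (median -0.11), against medians of -0.04 and -0.05 over all probes in those ranges. Below 14, 12 of 40 were above 0 (median -0.04). Members made up 11.4% of all kept probes at 16 or more. The part of intensity and dye in the calls was not tested.

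**Figure D4:**
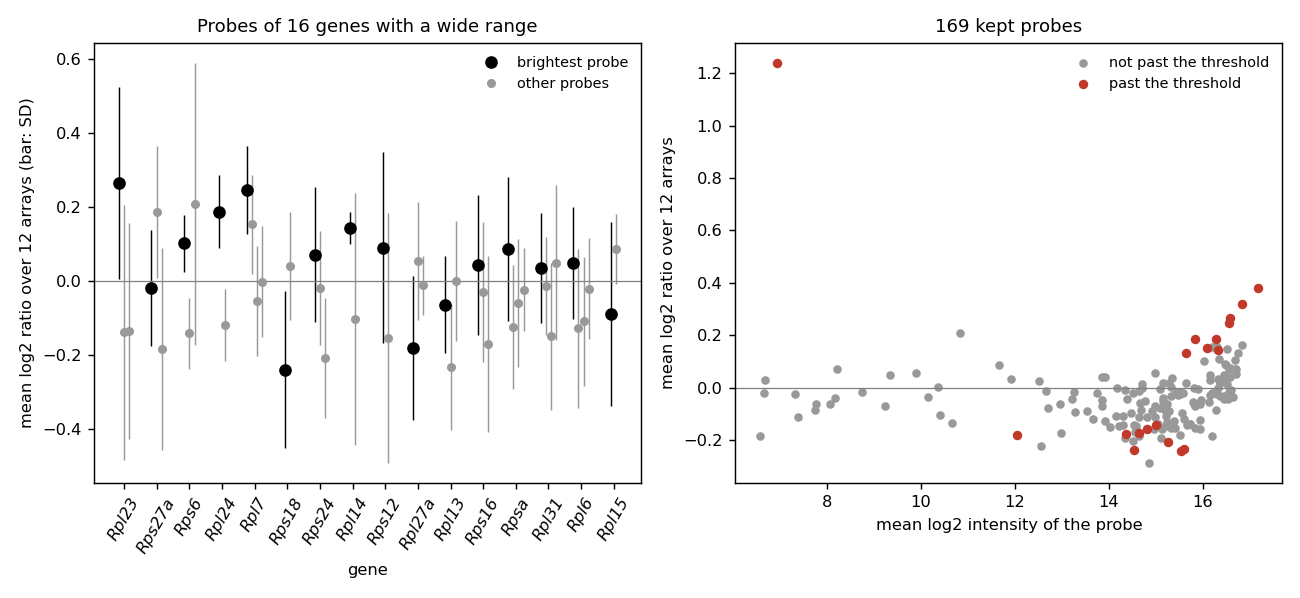
Left: mean log2 ratio over the 12 arrays (bars are SD) of every kept probe of 16 genes with a wide range between probes, with the brightest probe in black and the others in grey. Right: the same mean (vertical axis) against the mean log2 intensity of the probe (horizontal axis) for all 169 kept probes, with those past the threshold in red; most probes from 14 to 16 lie below 0 and that of Rps14, at the right edge, is the brightest and has a mean of 0.38.

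Other genes of translation were read beside the members, in the mean of the 4 groups, where 8.43% of all genes were higher and 6.34% lower. With the slide as a random block, the calls given here were lost except those of Mrpl27, Ubtf, Mycn and Rheb (adjusted p = 0.02962, 0.002197, 0.0322 and 0.03576 in limma). With it as a fixed block, 8 mitochondrial ribosomal protein genes were higher and 31 lower, 2 initiation genes higher and 18 lower, 3 elongation genes higher and 1 lower, 7 biogenesis genes higher and 11 lower, 3 signalling genes higher and 5 lower, and 2 partners higher and 4 lower, where 17.8% and 17.1% of all genes were. Of 77 mitochondrial ribosomal protein genes, 4 were higher and 13 lower (median -0.05), among them Mrpl27 at 0.31 and Mrpl51, Mrpl57 and Mrpl2 at -0.26, -0.24 and -0.22, with Mrpl35 at 0.19. Of 39 initiation genes, 1 was higher, the cap-binding protein Eif4e at 0.23, and 8 were lower (median -0.10), among them Eif3g at -0.27, the poly(A)-binding protein Pabpc1 at -0.24, the scaffold Eif4g1 at -0.20 and Eif2b2 at -0.17. Of 10 elongation genes only Eef2, the translocase, passed, at 0.18 (median 0.04). Of 38 genes of ribosome biogenesis 6 were higher and 4 lower (median -0.06). Ubtf, the RNA polymerase I factor, stood at 0.62 (SD 0.14, higher on 12 of 12 arrays, adjusted p = 2.691e-05 in limma). Pes1 and Nop16 were at 0.34 and 0.28, and the rRNA methyltransferases Fbl and Nop2 at -0.31 and -0.27. Of 21 genes of mTOR and S6 kinase signalling 2 were higher, Mycn at 0.38 and the mTOR activator Rheb at 0.26, and 2 lower, Rptor at -0.22 and the S6 kinase gene Rps6kb1 at -0.15. Of 7 ribosome-bound partners and fusion proteins, Rack1, the scaffold on the small subunit, was at 0.26 and Serbp1 at -0.18. By slide, some of these lists were as low as the members on slide 1, and each had a lower median than the members on the silicate arrays of slide 3. On slide 1 the initiation genes had medians of -0.18 and -0.24 for gold and -0.21 and -0.17 for silicate, and the biogenesis genes -0.15 and -0.26 for gold and -0.15 and -0.22 for silicate (100 nm and 20 nm), against -0.17, -0.20, -0.21 and -0.15 for the members. The mitochondrial ribosomal proteins lay between -0.14 and -0.11 there, the elongation genes between -0.08 and 0.05, the signalling genes between -0.09 and -0.01 and the partners between -0.33 and -0.06. On the silicate 100 nm and 20 nm arrays of slide 3 the members had 0.30 and 0.27. There the elongation genes had 0.17 and 0.18, the partners 0.16 and 0.16, the biogenesis genes 0.12 and 0.04, the signalling genes 0.08 and 0.13, the mitochondrial ribosomal proteins 0.07 and 0.07, and the initiation genes 0.03 and 0.02. The differences between lists were not tested.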

How the data were processed

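Each array's deposited file holds intensity values from the scanner and Agilent's log10 ratio of Cy5 over Cy3. The software was Feature Extraction, in version 11.0.1.1 per the file headers and 9.3.2.1 per the submitters' processing notes. The series' deposited value table holds log2 ratios whose slope against the log10 ratio was 3.3 to 3.32 and whose column medians were 0.016 to 0.114. How the authors centred it is not given in the sources used here.

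Median signals and backgrounds were corrected with normexp (offset 50) and normalized by loess within arrays, with 1377 control spots at weight 0 and 149 to 257 outlier spots per array left out. Spots were averaged per probe and named by RefSeq accession on GRCm38.p6, for names only, since the arrays' design is on mm9. Of 32334 RefSeq-type accessions, 6279 had no match. The brightest kept probe stood for its gene. Levels are log2 intensities per channel after Aquantile. limma 3.58.1 (lmFit, eBayes, R 4.3.3) fitted 4 group means over 12 arrays, two-sided, at 0.05 after Benjamini-Hochberg adjustment across the genes. Every adjusted p is from limma. The fit was tested on simulated data drawn independently for each array, with no slide effect. That test cannot show how often calls are false when the arrays of a slide share a PBS tube.

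Replicate numbers equal slides, per the file headers, and so pair the arrays. Pairs of arrays on slides 1, 2 and 3 had correlations, across genes, of their deviations from group means of 0.889 to 0.934, 0.082 to 0.831 and 0.555 to 0.919. The slide as a block was an alternative. Place on the slide and group cannot be told apart. P-values measure the spread between these pools, and the number of arrays limits their precision. The main fit treated the arrays as independent. If the arrays of a slide share a PBS tube, as was assumed, comparisons with PBS rest on only 3 PBS tubes. The random block put the correlation between arrays of a slide at 0.494. The main fit's SEs and adjusted p in the mean of the 4 groups are then likely too small. The fixed block leaves the spread between slides out of the error, so its calls against PBS do not allow for shared tubes.

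The genes named were the members past the threshold, a list of members with known roles or paralogs, those with the brightest and dimmest probes, the widest range between probes and the largest SD, and up to 5 genes past the threshold in each other translation list. Members and lists were chosen with earlier results of these data known. Results of some genes are not reported here.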

Additional observations from a re-analysis of the deposited data

How the results depend on the processing

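Under 12 alternatives and 1 added after the data were seen, counts of members past the threshold moved as follows. In the mean of the 4 particle groups (11 of 84 genes), median centring gave 37 (14.7% of all genes), the slide as a replicate block 32 (34.8%), as a random block 1 (1.69%), the mean of all kept probes 5 (14%), the authors' deposited log ratios 5 (14.6%), and leaving out both silicate arrays of slide 3, the added alternative, 23 (16.9%). Processed signals and an offset of 10 gave 9 each (9.4% and 14.3%). Leaving out each replicate in turn gave 0 to 10, the 0 without replicate 2. Of 19 probes, median centring gave 49 (13.7% of all probes), the replicate block 60 (34%), the random block 1 (1.48%), the deposited log ratios 10 (13.9%), the arrays without both silicate arrays of slide 3 gave 42 (16.1%), and leaving out a replicate 0 to 15. In single groups with 0 genes, median centring gave 5 for gold 100 nm, 4 for gold 20 nm, 9 for silicate 100 nm and 4 for silicate 20 nm, where 1.81%, 1.51%, 2.06% and 2.24% of all genes were called. The replicate block gave 5, 1, 4 and 5 in that order (6.71%, 4.47%, 4.03% and 8.76% of all genes), processed signals 1 for silicate 100 nm (0.714%), and leaving out both silicate arrays of slide 3 gave 2 for gold 100 nm (1.15%) and 1 for gold 20 nm (0.839%). Every alternative gave 0 members for gold against silicate, for size and for the difference of size effects. Over all genes, calls in the mean of the 4 groups were 3430, and 8089 with the replicate block, 393 with the random block and 267 to 2111 on leaving out a replicate. Rpl11 turned to 0.28 (adjusted p = 0.0142) after median centring, and Rpl23 to -0.003 (adjusted p = 0.984) as the mean of its probes. The cause was not tested. The Cy3 signal of Rpl39l, not well above background on any array, limits its fold to a bound.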
